A study of Mus musculus with 6 samples.

Results

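The Notch genes described here were 10 rows of a table of 17830 mouse genes, found by their symbols. They were the receptors Notch1, Notch2, Notch3 and Notch4, the ligands Jag1, Jag2, Dll1 and Dll4, and the transcription factors Hes1 and Hey1, which are classic targets of the pathway. Bulk RNA-seq counts were analysed for 6 libraries labelled as skull osteoblasts, 3 of control genotype (mOCN-Cre; Ai9) and 3 of APPswe genotype (TgAPPswemOCN-Cre; Ai9), from mice aged 6 months. Both genotypes carried mOCN-Cre, a knock-in at the osteocalcin gene Bglap that makes Cre in osteoblast-lineage cells, and Ai9, a reporter that turns on the red protein tdTomato after Cre has acted. The APPswe mice also carried a transgene for human APP with the Swedish mutations, driven by the CAG promoter and silent until Cre removes a stop cassette. Cells that had grown out of calvarial bone fragments were sorted for tdTomato before RNA extraction, and the legend of the study's sequencing figure gives the mice as male. The labels do not say whether the libraries of a genotype came from separate mice, cultures or sorts, so the p-values measure only the spread between these libraries.

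Notch receptors are membrane proteins that bind ligands of the Jagged and Delta-like families on a neighbouring cell. Binding lets the ADAM proteases and then γ-secretase cut the receptor, and its freed intracellular part joins the DNA-binding protein RBPJ and a Mastermind coactivator to turn on genes such as Hes1 and Hey1. In bone, Notch signalling is known to act in osteoblast progenitors and osteoclast precursors, while Dll4 and Notch4 are known for their expression in the endothelium of blood vessels and Notch3 for that in pericytes and smooth muscle. Each value below is a level for one gene in one library or a difference between genotypes, and CPM stands for read counts scaled to a common library size, with library sizes adjusted by TMM. Values listed for a genotype stand in the order of replicates 1, 2 and 3. Values in FPKM, which also divide by transcript length, were computed by the authors and are used where genes are compared with each other.

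Library totals lay between 17649704 and 18398392 counts in control and between 17263757 and 17555489 in APPswe, and 3 counts, taken as the floor of detection, stood for 0.167 to 0.173 CPM (counting error only). The level of App averaged 1119 ± 154 CPM over control and 1037 ± 19.2 CPM over APPswe libraries (SD, n = 3 each), but human transgene reads were not counted separately, so it does not check the genotype labels. Control replicate 2 stood apart from the other libraries. Its library name, Ctrl-S, was the only one with the letter S, where the others had L. The labels do not say what these letters mean. Control replicate 2 had 2 counts over 4 Y-linked genes, against 2257 to 3406 in the other libraries, which goes against the stated sex. It had 1 count of Bglap against 115 to 204. The summed level of 14 endothelial markers came to 84.2 CPM there, to 300.0 and 325 CPM for control replicates 1 and 3, and to between 30.9 and 34.1 CPM for APPswe. The list did not go one way in control replicate 2, where Kdr and Vwf were higher than in any other library and made up 80.5 of the 84.2 CPM, while the other 12 markers summed to 3.71 CPM. Pecam1 and Cdh5, which define endothelial cells, had 1 and 6 counts in control replicate 2. The sums of 12 osteoblast markers were 17573 to 18838 CPM in control and 11628 to 12258 CPM in APPswe, mostly from Col1a1, Col1a2 and Spp1. Those of 13 macrophage markers were 18323 to 25434 and 12748 to 13813 CPM, mostly from Lyz2. The macrophage sums show that the labelled cell type was not the only one with its markers present. Neither list went one way between genotypes. In the osteoblast list, 3 markers (Sp7, Runx2 and Alpl) were higher in every APPswe library than in every control library, and 2 (Col1a2 and Spp1) lower. In the macrophage list, 1 (Aif1) was higher and 9 lower in the same sense, against 22.8% and 22.2% of all genes tested. In control replicate 2 the osteoblast markers Ibsp (3 counts against 940 to 1468 in the other libraries), Alpl (35 against 752 to 1357) and Sp7 (33 against 103 to 381) were far below the other libraries. The sums of 8 osteoclast markers were 158 to 290 CPM in control and 719 to 731 CPM in APPswe. Those of 8 proliferation markers were 313, 844 and 299 CPM in control and 348, 322 and 339 CPM in APPswe. Results are therefore given with and without control replicate 2, and the part of these other cell types in them was not tested.

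On the FPKM scale Hes1 had the highest level of the 10 genes in control, at 12.2 ± 0.635 FPKM (SD, n = 3). Notch2 followed at 9.49 ± 1.18, Jag1 at 6.68 ± 0.837 and Notch1 at 3.65 ± 0.582 FPKM (SD, n = 3 each). These leading genes kept their order without overlap between neighbours in the 3 control libraries, and Notch1 also stayed above Notch3 at 2.41 ± 0.615 FPKM (SD, n = 3). From Notch3 down, the ranges of neighbouring genes overlapped, through Jag2 (1.30 FPKM), Dll4 (1.01), Notch4 (0.923) and Hey1 (0.780) to Dll1 (0.240). In APPswe libraries Hes1 was again the highest, at 16.6 ± 0.275 FPKM (SD, n = 3). Jag1, at 10.6 ± 0.390 FPKM, and Notch2, at 10.4 ± 0.350 FPKM (SD, n = 3 each), overlapped there. Hey1 moved from the ninth place in control to the sixth in APPswe libraries, and Dll4 from the seventh to the last. All 10 genes passed the filter on low counts, and Hes1 and Notch2 lay at percentiles 59.4 and 49.3 of mean FPKM among the genes tested, while Dll1 lay at percentile 1.82.

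**Figure D1:**
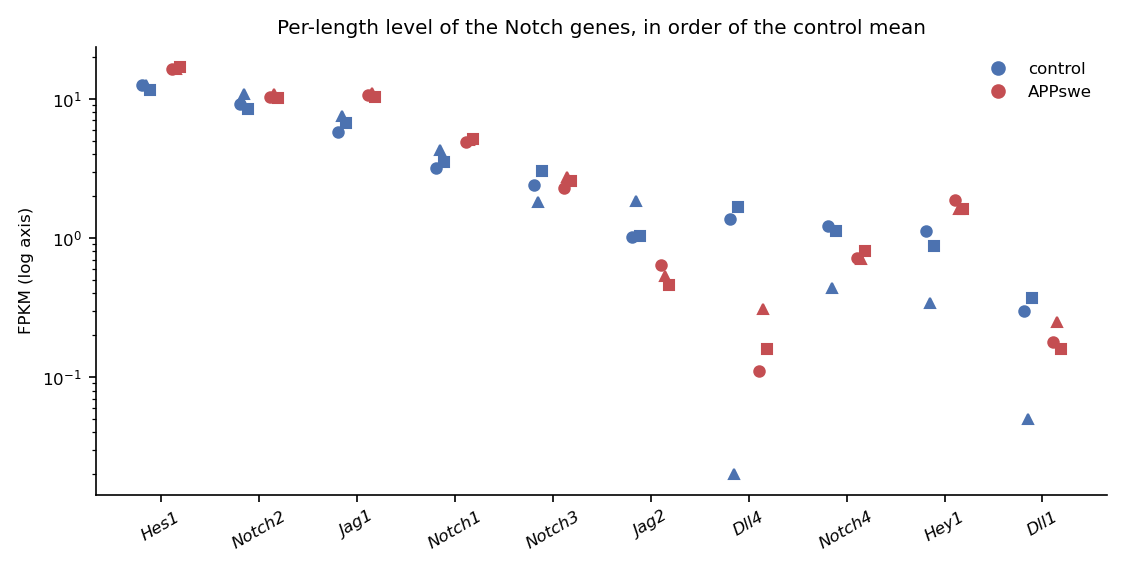
Level of each Notch gene in FPKM on a log axis, with the genes in the order of their control mean and 1 point per library (blue, control; red, APPswe; circle, triangle and square for replicates 1, 2 and 3). Hes1 was highest in both genotypes, and the triangle of control replicate 2 lay far below the other control libraries for Dll4 (0.02 FPKM) and Dll1 (0.05 FPKM).

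The genotypes were compared over all 13484 genes that passed the filter, with edgeR's quasi-likelihood test and Benjamini-Hochberg adjustment. The limits for a call were 0.05 for the adjusted p and 1 for the size of the log2 change. SE stands for the standard error of that change, and the adjusted p-values below come from this fit unless another is named. Among the 10 Notch genes, Jag2 was called lower, and at the adjusted p alone Jag1 and Hes1 were higher. The remaining 7 genes did not pass. No member was called higher by edgeR or by DESeq2, and 4 were higher at an unadjusted edgeR p under 0.05, as were 17.8% of all genes tested. Over all genes tested, 3.74% were called higher and 3.60% lower (7.34% in either direction), and at the adjusted p alone 10.5% were higher and 12.0% lower (22.5% in either direction). At those shares 1 of 10 genes would be past the adjusted p in each direction, so the member counts of 2 higher and 1 lower are near the background. In CPM, 4 members were higher in every APPswe library than in every control library (22.8% of all genes tested) and 1 was lower (22.2%), 45.0% of all genes being apart in one direction or the other. The median log2 change was 0.030 over the 10 members and -0.0033 over all genes tested.

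**Figure D2:**
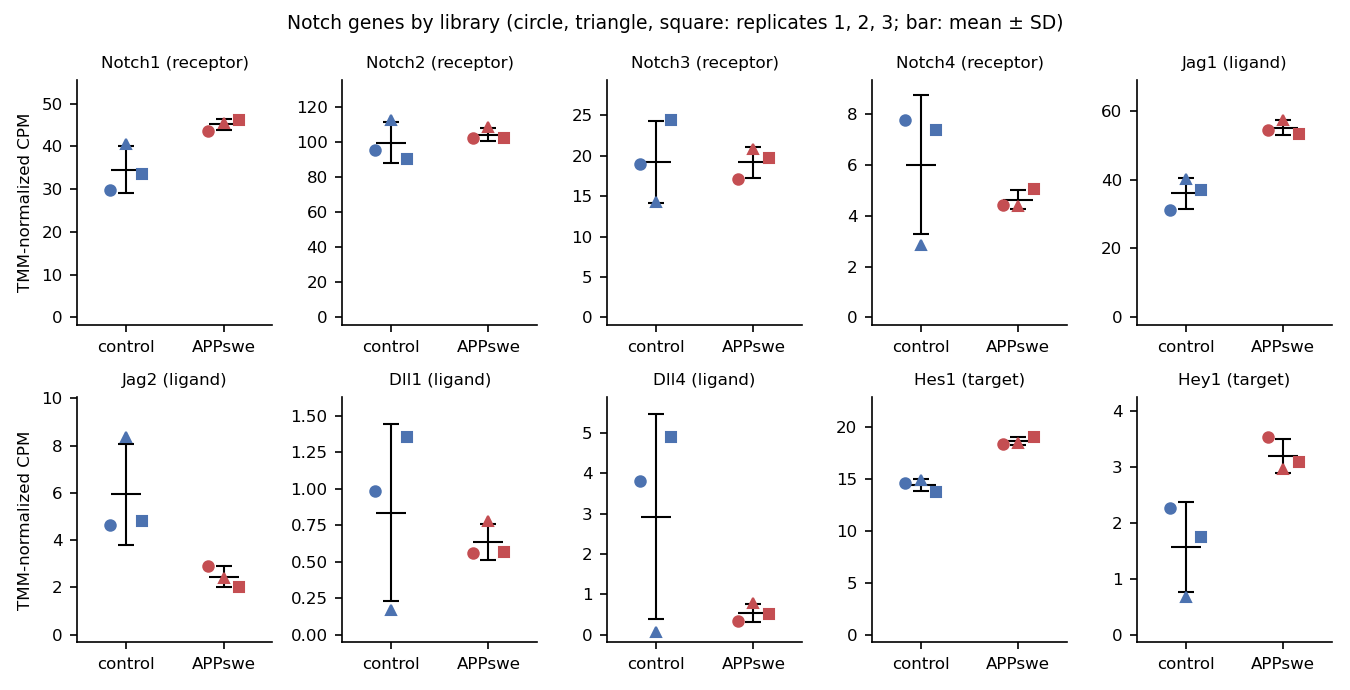
TMM-normalized CPM of each Notch gene by library, with the mean ± SD of 3 libraries per genotype on linear axes. All 3 APPswe libraries lay above all 3 control libraries for Notch1, Jag1, Hes1 and Hey1 and below them for Jag2.

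Among the receptors, none was called in either direction and none passed at the adjusted p alone, whereas 1 of the 4 was higher at an unadjusted edgeR p under 0.05. That receptor was Notch1 (NCBI gene 18128, GRCm38 chromosome 2, 26457902 to 26503822), which has roles in cell fate in many tissues. Notch1 was at 29.8, 40.5 and 33.5 CPM in control and at 43.7, 45.6 and 46.3 CPM in APPswe. The groups did not overlap, and the nearest libraries were control replicate 2 and APPswe replicate 1. Its log2 change was 0.39 (SE 0.12, adjusted p = 0.0638).

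Notch2 (NCBI gene 18129, chromosome 3, 98013538 to 98150367), a receptor known for its part in bone remodelling, was the receptor with the highest level. It was at 95.7, 113 and 90.5 CPM in control and at 102, 108 and 102 CPM in APPswe. The APPswe libraries lay inside the control range, and the log2 change was 0.065 (SE 0.098, adjusted p = 0.669). Notch3 (NCBI gene 18131, chromosome 17, 32120820 to 32166896) was at 19.0, 14.3 and 24.5 CPM in control and at 17.1, 20.8 and 19.7 CPM in APPswe. The control libraries spanned the APPswe values here too, with a log2 change of -0.0041 (SE 0.20, adjusted p = 0.991), whose sign changed between settings. Notch3 is well known in pericytes and smooth muscle. Summed levels of 12 markers of these cells were 1354, 2490 and 1377 CPM in control and 2758, 2821 and 2868 CPM in APPswe libraries. These sums came mostly from the contractile genes Acta2 and Tagln. Of the 11 tested markers, 6 were higher in every APPswe library than in every control library (22.8% of all genes tested). The 2 that were lower in the same sense (22.2%) were Pdgfrb and Mcam. Rgs5, a defining pericyte marker, had 133, 13 and 140 counts in control and 87, 78 and 68 in APPswe libraries.

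Notch4 (NCBI gene 18132, chromosome 17, 34564286 to 34588543) was at 7.80, 2.87 and 7.39 CPM in control and at 4.43, 4.40 and 5.06 CPM in APPswe. Control replicate 2 was the lowest of the 6 libraries and the other control libraries were the highest, so the groups overlapped. The log2 change was -0.38 (SE 0.37, adjusted p = 0.491) with all libraries. Notch4 fell in the fit without control replicate 2, by 0.71 on the log2 scale (SE 0.14, adjusted p = 0.00147). As a share of the summed FPKM of the 4 receptors, Notch2 held 57.5 ± 4.80% in control and 55.7 ± 1.16% in APPswe libraries, and Notch1 held 22.1 ± 2.49% and 26.8 ± 0.627% (SD, n = 3 each). The Notch1 shares did not overlap between genotypes, and those of the other 3 receptors did. The sum itself was 16.5 ± 0.759 FPKM in control and 18.7 ± 0.563 FPKM in APPswe libraries (SD, n = 3 each).

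Of the ligands, Jag1 rose and Jag2 fell in APPswe libraries, Dll4 was low in the APPswe libraries and in control replicate 2, and Dll1 had 3 to 24 counts in the 6 libraries. The DNA before the start sites of Jag1 and Dll4 is shown because Jag1 is the ligand with the highest level and Dll4 the one with the largest log2 change, with every CG pair, the site of DNA methylation, in capitals. The sequences are RefSeq's, build GRCm38.p6, each read 5′ to 3′ toward the gene and holding no annotated transcript of it. For Jag1 the bases nearest the RefSeq start site are left out, since another annotated transcript covers them.
Jag1, chr2:137116645-137116770, minus strand: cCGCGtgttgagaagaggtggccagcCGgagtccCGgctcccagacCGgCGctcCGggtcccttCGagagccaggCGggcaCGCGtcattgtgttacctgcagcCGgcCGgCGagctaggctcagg
Dll4, chr2:119325534-119325783, plus strand: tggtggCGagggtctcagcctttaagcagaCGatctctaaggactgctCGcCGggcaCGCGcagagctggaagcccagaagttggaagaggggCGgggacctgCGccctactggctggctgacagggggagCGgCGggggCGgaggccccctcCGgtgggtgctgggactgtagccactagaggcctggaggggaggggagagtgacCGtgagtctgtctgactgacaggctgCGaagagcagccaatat
The printed Jag1 stretch is 126 of the 250 bases before the start site. Over the whole windows of 250 bases, Jag1 had 20 CG pairs and a GC content of 57.2%, and Dll4 had 14 CG pairs and 65.6%.

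RefSeq windows were matched for 8 of the 10 members, not for Hes1 and Hey1, and gave 9 windows of 250 bases before a start site. The letters GTGGGAA and GTGAGAA, bound by RBPJ, the shorter core TGGGAA, which the first of these contains, and the E-box CACGTG were searched for on both strands. None of the 9 windows held any of them. Of all 32851 windows of this length, 5.42% held GTGGGAA, 3.83% held GTGAGAA, 21.6% held the core and 6.02% held the E-box. The search says only that these letters are not in these windows.

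Jag1 (NCBI gene 16449, chromosome 2, 137081451 to 137116520) encodes Jagged 1, a ligand that osteoblast-lineage cells are known to present. It was at 31.1, 40.1 and 36.9 CPM in control and at 54.4, 57.4 and 53.3 CPM in APPswe. All APPswe libraries were above all control libraries, and the 3 APPswe values lay close together. Jag1 rose 1.53-fold, a log2 change of 0.61 (SE 0.11, adjusted p = 0.0103), under the fold limit of the call. Within the libraries with a hyphen in their names the difference was 0.62 on the log2 scale and within those without a hyphen 0.58. The adjusted p was 0.0604 without APPswe replicate 2 and 0.0503 without APPswe replicate 3, with log2 changes of 0.58 and 0.63.

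Jag2 (NCBI gene 16450, chromosome 12, 112907803 to 112929812) encodes the other Jagged ligand. It had 80, 149 and 85 counts in control and 52, 43 and 36 in APPswe, or 4.62, 8.38 and 4.80 against 2.92, 2.40 and 2.02 CPM. Every APPswe library was below every control library, and control replicate 2 was the highest of all. Jag2 fell 2.42-fold, a log2 change of -1.28 (SE 0.30, adjusted p = 0.0254). Without control replicate 2 it was -0.94 (SE 0.18, adjusted p = 0.00172), under the fold limit of the call. Leaving out APPswe replicates 1, 2 and 3 in turn gave adjusted p-values of 0.0691, 0.106 and 0.109, with log2 changes of -1.42, -1.26 and -1.16. The differences were -0.98 and -0.97 within the libraries named with and without a hyphen, and the adjusted p was 0.0512 with that naming style as a covariate.

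Dll4 (NCBI gene 54485, chromosome 2, 119325784 to 119335666) is the Delta-like ligand of sprouting blood vessels. It had 66, 1 and 87 counts in control and 6, 14 and 9 in APPswe. The single count in control replicate 2 is under the floor of 3, so the groups overlapped in that library alone. With all libraries the log2 change was -2.42 (SE 1.09, adjusted p = 0.156). Without control replicate 2 Dll4 fell by 2.99 on the log2 scale (SE 0.28, adjusted p = 9.88e-06), the largest size among the 10 genes, and it was called. The difference was -0.89 within the libraries named with a hyphen, where control replicate 2 is 1 of the 2 control libraries, and -2.25 within those named without one.

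Most endothelial markers had the same low libraries as Dll4 and Notch4, and Kdr and Vwf did not. Pecam1 had 827, 1 and 895 counts in control and 31, 43 and 54 in APPswe libraries, and Cdh5 had 1009, 6 and 1126 against 32, 22 and 26. Kdr, with 188, 453 and 224 counts against 51, 52 and 57, and Vwf, with 661, 979 and 829 against 236, 259 and 257, were highest in control replicate 2, where Dll4 and Notch4 were lowest. Kdr and Vwf were also the 2 of the 10 tested markers that passed with all libraries, both lower in APPswe. Split in this way after the values were seen, the other 12 markers summed to 251, 3.71 and 265 CPM in control and 14.9, 14.3 and 16.4 CPM in APPswe, so that control replicate 2 was the lowest library of that sum. Sox17 and Cldn5 were at 0 in APPswe replicate 1, and Tie1, Sox17, Sox18 and Cldn5 were at 0 in control replicate 2. In bulk libraries, fewer cells of a type and less RNA per cell cannot be told apart, and the part of the endothelial markers in the Dll4, Notch4 and other Notch values was not tested.

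**Figure D3:**
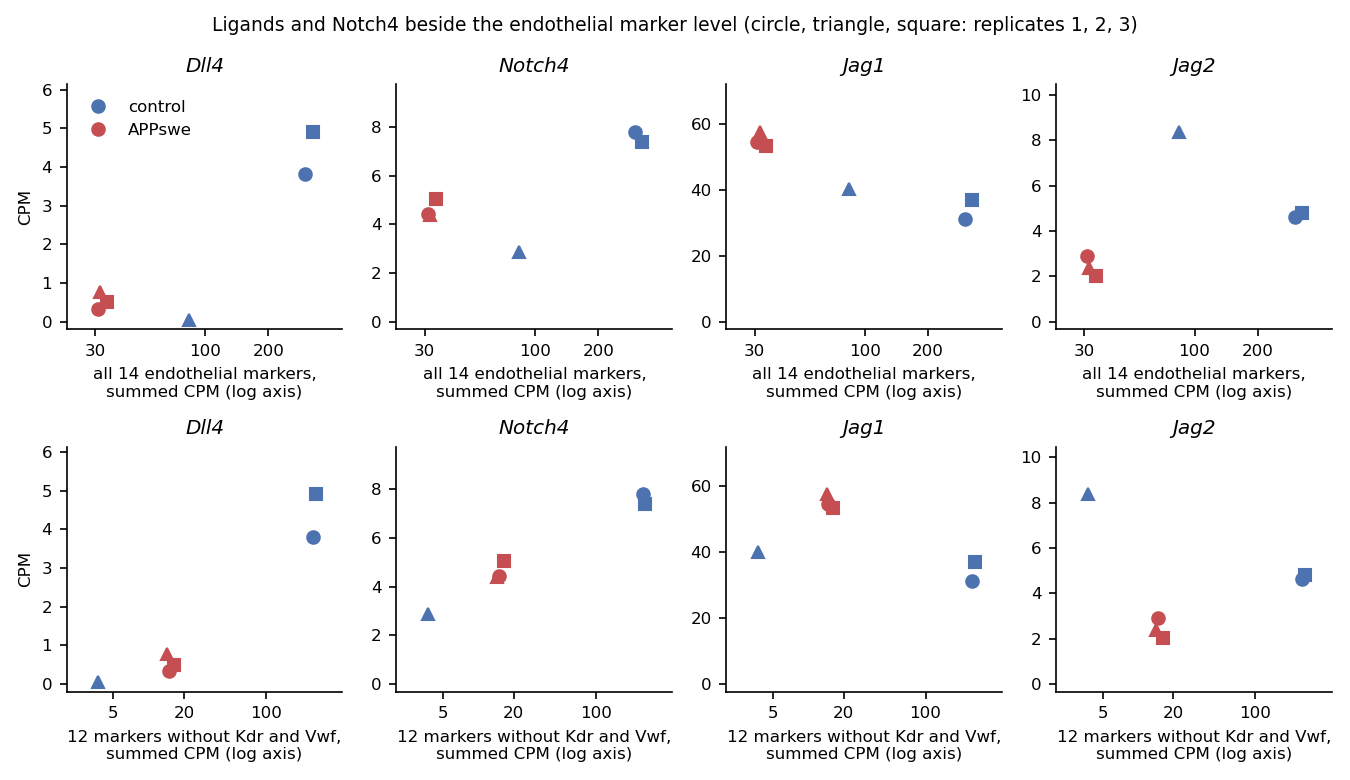
CPM of Dll4, Notch4, Jag1 and Jag2 in each library against the summed CPM, on a log axis, of all 14 endothelial markers (upper row) or of the 12 without Kdr and Vwf (lower row), with control in blue, APPswe in red, and circle, triangle and square for replicates 1, 2 and 3. Control replicates 1 and 3 stood at the right of each panel with the highest Dll4 and Notch4, while control replicate 2 stood right of the APPswe libraries in the upper row (84.2 CPM) and left of them in the lower row (3.71 CPM).

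Dll1 (NCBI gene 13388, chromosome 17, 15367354 to 15376932), a Delta-like ligand of many stem and progenitor cells, had 17, 3 and 24 counts in control and 10, 14 and 10 in APPswe. Control replicate 2 was the lowest library and at the floor of detection, and the other control libraries were the highest. The log2 change was -0.39 (SE 0.64, adjusted p = 0.694) with all libraries, and without control replicate 2 it was -0.87 (SE 0.32, adjusted p = 0.0417).

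In FPKM, Jag1 was the main ligand in both genotypes and held a higher share in every APPswe library. Jag1 made up 68.4%, 79.7% and 68.8% of the summed FPKM of the 4 ligands in control and 92.0%, 91.0% and 92.9% in APPswe libraries. The 3 APPswe libraries thus all lay above the control libraries, also above control replicate 2, in which Dll4 had 1 count. Jag2 held 12.0%, 19.6% and 10.5% in control and 5.53%, 4.37% and 4.17% in APPswe libraries. The ratio of Jag1 to Jag2 was 5.70, 4.06 and 6.55 in control and 16.6, 20.8 and 22.3 in APPswe libraries, again without overlap. The sum over the 4 ligands was 9.23 ± 0.674 FPKM in control and 11.6 ± 0.545 FPKM in APPswe libraries (SD, n = 3 each). These shares were not tested, since the smallest exact permutation p that 3 libraries against 3 allow is 0.10 (two-sided).

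Of the target genes, Hes1 rose in APPswe libraries at the adjusted p alone and Hey1 did not pass, although neither overlapped between the genotypes. Hes1 (NCBI gene 15205, chromosome 16, 30065357 to 30067796), a repressor that keeps progenitors from differentiating, was at 14.6, 14.9 and 13.7 CPM in control and at 18.4, 18.4 and 19.0 CPM in APPswe. The libraries of each genotype lay close together, control replicate 2 included, and the groups did not overlap. Hes1 rose 1.29-fold, a log2 change of 0.37 (SE 0.097, adjusted p = 0.0365). It was 0.40 without control replicate 2 (adjusted p = 0.00493). Leaving out any other single library kept the log2 change between 0.33 and 0.38, and the adjusted p was then 0.0912 and 0.111 without control replicates 1 and 3, and 0.0944, 0.131 and 0.144 without APPswe replicates 1, 2 and 3. The difference was 0.31 within the libraries named with a hyphen and 0.44 within those named without one.

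Hey1 (NCBI gene 15213, chromosome 3, 8663359 to 8667038), a related repressor found in vessels and osteoblasts, had 39, 12 and 31 counts in control and 63, 53 and 55 in APPswe. Each APPswe library was above each control library, and control replicate 2 was the lowest. Its log2 change was 1.03 (SE 0.40, adjusted p = 0.113). Without control replicate 2 the value was 0.68 (SE 0.20) and passed the test, with an adjusted p of 0.0184, under the fold limit. The differences were 1.17 and 0.65 within the libraries named with and without a hyphen.

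Control replicate 2 was the highest of the 3 control libraries for Notch1, Notch2, Jag1, Jag2 and Hes1 and the lowest for Notch3, Notch4, Dll1, Dll4 and Hey1. It was the highest or the lowest control library for 86.0% of all genes tested. Without it, 8 of the 10 Notch genes passed at the adjusted p alone, with Notch1, Jag1, Hes1 and Hey1 higher and Notch4, Jag2, Dll1 and Dll4 lower. Over all genes tested in that fit, 23.3% were higher and 25.0% lower at the adjusted p alone. Notch2 had an adjusted p of 0.0607 and Notch3 of 0.272 in the same edgeR fit. The genes Jag1, Jag2 and Hes1 passed at the adjusted p alone both with all libraries and without control replicate 2. Only Dll4 was called in the fit without control replicate 2, as 1 member lower against 6.58% of all genes called lower and 4.87% called higher.

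**Figure D4:**
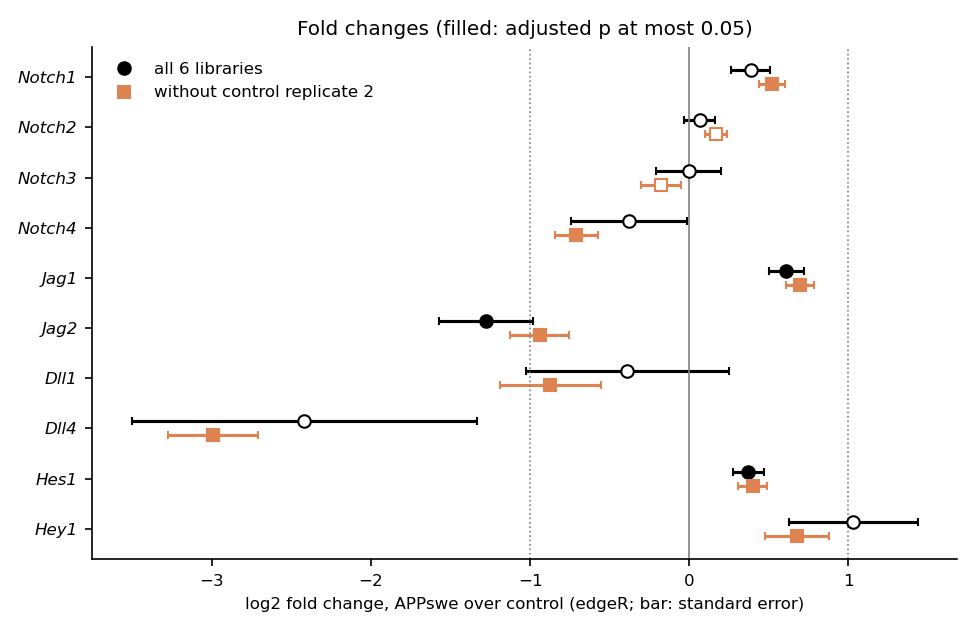
Log2 fold change of each Notch gene, APPswe over control, with its SE, from edgeR fits with all 6 libraries (black circles) and without control replicate 2 (orange squares), filled where the adjusted p was at most 0.05. Filled symbols are seen for Jag1, Jag2 and Hes1 in both fits, and the bars of Dll4, Notch4 and Hey1 were shorter in the fit without control replicate 2.

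Of 59 other genes of the pathway, 58 were in the table and 53 passed the filter on low counts. At the adjusted p alone 4 were higher and 4 lower in APPswe libraries, against the 10.5% and 12.0% of all genes given above, and 45 did not pass. The median log2 change over the 53 genes was -0.081. Dlk1 and Tle2 were called higher (3.74% of all genes), and no gene was called lower by edgeR, while 15 of the 53 were lower at an unadjusted edgeR p under 0.05, as were 19.4% of all genes tested. DESeq2 called 1 gene lower, the ubiquitin ligase Dtx3l, named here after its values were seen, which was at 31.5, 88.1 and 35.0 CPM in control and at 20.7, 19.6 and 20.8 CPM in APPswe. Control replicate 2 was the highest library for Dtx3l, and no APPswe library reached the control range. Its log2 change was -1.34 in edgeR (adjusted p = 0.0520) and -1.35 in DESeq2 (adjusted p = 0.00172), and without control replicate 2 it was -0.70 in edgeR (adjusted p = 6.96e-05), under the fold limit. Without control replicate 2, 11 were higher and 16 lower of 54 tested, against 23.3% and 25.0% of all genes.

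Dlk1, an atypical ligand that is also a marker of preadipocytes and myogenic cells, rose most, with 29, 13 and 36 counts in control and 398, 479 and 489 in APPswe. The log2 change was 4.10 (SE 0.33, adjusted p = 0.000851), and no library of one genotype came near the other. Skeletal muscle markers had a summed level over 12 markers of 1.50 to 12.0 CPM in control and 173 to 177 CPM in APPswe libraries. Several of them, such as Myod1, Myog and Mymk, had so few control counts that they passed the filter through the APPswe libraries, so no count of calls is given for them. Pax7, the satellite cell marker of that list, had 1 count in APPswe replicate 3 and 0 in the other libraries, and the part of muscle cells in the Dlk1 value was not tested.

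In the nucleus, Rbpj, the DNA-binding partner of every Notch receptor, was at 292, 348 and 272 CPM in control and 235, 215 and 213 CPM in APPswe. Rbpj fell in the APPswe libraries by 0.46 on the log2 scale (SE 0.11, adjusted p = 0.0279). Maml3, a Mastermind coactivator, rose with a log2 change of 0.72 (adjusted p = 0.0420), from 4.06 ± 0.812 to 6.72 ± 0.755 CPM (SD, n = 3 each). Among the corepressors, Tle2 rose, with 16.3 ± 5.52 CPM in control, 48.5 ± 7.96 CPM in APPswe (mean ± SD, n = 3) and a log2 change of 1.58 (adjusted p = 0.00858). Tle1, of the same Groucho family that Hes proteins recruit, fell, with 36.4 ± 4.97 CPM in control, 22.9 ± 1.01 CPM in APPswe (mean ± SD, n = 3) and a log2 change of -0.67 (adjusted p = 0.0102). The histone deacetylase Hdac2 rose, with 79.8 ± 0.241 CPM in control, 107 ± 7.21 CPM in APPswe (mean ± SD, n = 3) and a log2 change of 0.43 (adjusted p = 0.00972). The corepressors thus included genes that moved either way.

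The proteases Adam10 and Adam17, which make the first cut of the bound receptor, did not pass (adjusted p = 0.618 and 0.724). Numb, an adaptor that restrains Notch by drawing the receptor into the cell, fell, with 72.7 ± 8.24 CPM in control, 50.8 ± 1.30 CPM in APPswe (mean ± SD, n = 3) and a log2 change of -0.52 (adjusted p = 0.0126). None of the 5 glycosylation genes and none of the 4 genes for ligand endocytosis passed at the adjusted p in edgeR or in DESeq2, and at an unadjusted edgeR p under 0.05 there was 1 glycosylation gene lower and, for ligand endocytosis, 1 gene higher and 1 lower. Rbpj passed in 7 of 16 alternatives, Maml3 in 8, Tle1 in 11, Numb in 13 and Hdac2 in 15, while Dlk1 and Tle2 passed in all 16.

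The further target genes were scarce. Heyl was at 3.18, 0.956 and 3.27 CPM in control and 3.70, 4.07 and 3.82 CPM in APPswe, a log2 change of 0.65 (adjusted p = 0.312). Hey2 had a log2 change of -0.067 (adjusted p = 0.929) at 0.337 to 1.04 CPM in the 6 libraries. Hes7, Nrarp and Dtx1 did not pass the filter with all libraries. Nrarp, a feedback inhibitor of Notch named here after its values were seen, had 23, 1 and 26 counts in control and 2, 2 and 6 in APPswe. Control replicate 2 was the lowest library, and 2 of the APPswe libraries were under the floor too. Without control replicate 2 Nrarp passed the filter and was called lower, with a log2 change of -2.86 (SE 0.42, edgeR adjusted p = 0.000268). Nrarp was the only gene of the other pathway list called lower in that fit, and 2 were called higher, against 6.58% and 4.87% of all genes.

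**Figure D5:**
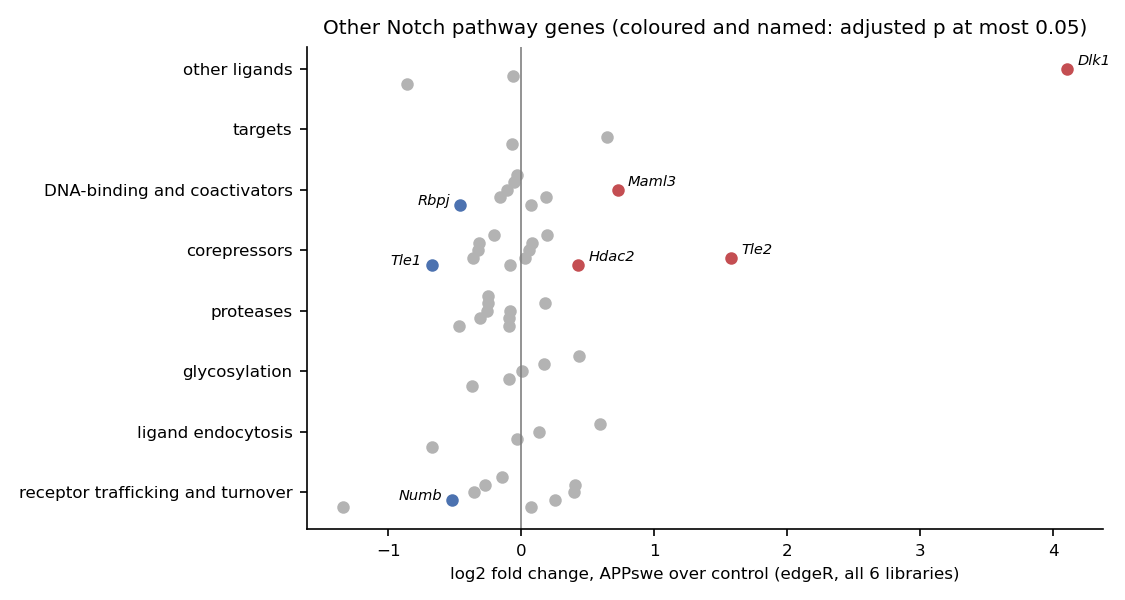
Log2 fold change, APPswe over control, of other Notch pathway genes from edgeR with all 6 libraries, 1 point per gene in a row for its role, coloured and named where the adjusted p was at most 0.05. Dlk1 (4.10) and Tle2 (1.58) lay farthest to the right, and most points lay between -1 and 1.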

How the data were processed

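The members, the gene lists and the tests were chosen with earlier results of these data known. Per the file headers the authors deposited raw read counts per gene and, in a second file, FPKM values rounded to 2 decimals, whose blank cells were read as 0. Columns of the authors' own comparison (log2 fold changes and p-values) were deposited with the FPKM values and were not used. The sorted cells were sequenced on the DNBseq platform after SMARTER mRNA-Seq library preparation. The submitters' processing notes name the build GRCm38, and the aligner and counting tool are not given in the sources used here. Gene positions are those of RefSeq on GRCm38.p6.

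The count tests ran in edgeR 4.0.16 under R 4.3.3 (TMM, filterByExpr, quasi-likelihood test without a covariate, 2-sided, Benjamini-Hochberg adjustment over all genes tested). The standard error is the log2 fold change over the square root of F. All 10 members, the other pathway genes past the adjusted p limit of 0.05, except 1 that is not reported here, and the defining markers were named. Alternatives used DESeq2 1.42.0, limma 3.58.1 on log2(FPKM + 1) or log2(FPKM + 0.1), other filters and scalings, the replicate number as a block, the library naming style as a covariate and each library left out. Differences within a naming style, of log2(CPM + 0.5), are an addition chosen after seeing the data. The count tests were tested on simulated data with known changes, which were larger than those of Jag1 and Hes1. No simulated library was set apart as control replicate 2 was, so the simulation does not cover small changes or such a library. To look for repeated libraries, the chi-square over its degrees of freedom was taken for each pair within a genotype. It was 1.58 for APPswe replicates 2 and 3 and 6.20 to 80.4 for the other pairs. APPswe replicates 2 and 3 were thus much closer to each other than any other pair. The values cannot tell whether 2 libraries came from the same RNA, culture or sort.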

Additional observations from a re-analysis of the deposited data

How the results depend on the processing

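Over the 16 alternatives, the log2 change of Jag1 was positive throughout (0.51 to 0.70, adjusted p 9.35e-05 to 0.0604), as was that of Hes1 (0.33 to 0.44, adjusted p 0.00493 to 0.144), and that of Jag2 was negative throughout (-1.43 to -0.56, adjusted p 0.00172 to 0.109). They passed the adjusted p in 14, 9 and 10 of them. The sign of Notch3 turned, with log2 changes of 0.069 without TMM, 0.00040 where each library needed 10 counts, 0.064 with limma on log2(FPKM + 1), filtered or not, and 0.093 on log2(FPKM + 0.1). The labels do not say whether same-numbered libraries were paired. The deviations of same-numbered libraries correlated at 0.0838, -0.0432 and 0.190, and APPswe replicate 1 correlated best with control replicate 2 (0.0970). With 3 libraries per genotype these correlations can neither show nor exclude a pairing. With the replicate block, Notch3 was at 0.022, 0 members were called lower, 1 was higher and 0 lower at the adjusted p, and 933 genes in all were higher against 1414. Without a filter 1 member was higher at the adjusted p, as Hes1 was then at 0.0538. With the naming style as covariate, 0 members were called lower and 0 were lower at the adjusted p. With limma on log2(FPKM + 1), 0 members were called lower, with a filter or without, and 0 were lower at the adjusted p without it. The 3 limma fits gave 2 other pathway genes lower. Of all genes, 504 were called higher and 486 lower in the reported fit. At least 10 counts in every library gave 320 higher, limma on log2(FPKM + 1) gave 316 higher and 185 lower, the same without a filter gave 305 higher and 170 lower (1003 lower at the adjusted p, against 1622), and log2(FPKM + 0.1) gave 313 lower. The cause of these shifts was not tested. Leaving out 1 library at a time gave 0 to 1 members called lower, 0 to 4 higher and 0 to 4 lower at the adjusted p, 2 to 11 other pathway genes higher and 0 to 16 lower, and, over all genes, 281 to 670 called higher, 230 to 905 called lower, 480 to 3199 higher and 536 to 3438 lower at the adjusted p. Except for the members called lower, the upper ends came without control replicate 2, and the lower ends came without an APPswe replicate. The log2 changes then ran from -0.0040 to 0.17 for Notch2, from -0.18 to 0.20 for Notch3 and from -0.87 to 0.14 for Dll1. Dll1 and Dll4 have no value with at least 10 counts in every library. Counts of 1 to 14, as for Dll4 and Dll1 in some libraries, limit what can be told of these genes.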
